A study of Mus musculus with 4 samples.

Results

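Phldb2, Cadm1 and Gpm6b are 3 genes for proteins that sit in or on the cell membrane, and they were followed here on arrays of mouse skeletal muscle. They were chosen from these same data, selected on their high signal on both arrays coded J, so every J against NJ value below is a description of genes already known to be high in J and carries no test. The rule took all probe sets whose only gene symbol in the platform's gene table is one of the 3. It found 5 probe sets, 1 for Phldb2, 3 for Cadm1 and 1 for Gpm6b, among 12422 probe sets that are not controls and 8251 genes with a probe set of their own. No further probe set lists a member beside another gene.

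Total RNA of murine skeletal muscle was hybridised to 4 arrays in a series whose title names the neuromuscular junction. The titles code 2 arrays as J (replicate labels 1a and 1c) and 2 as NJ (1a and 1d), all as control samples ("Ctr") at 0 h. The codes J and NJ are not spelled out in the labels and are used as given. The labels give no strain, age or muscle and do not say whether each array had its own animal, and the spread within a group may be technical.

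The neuromuscular junction is the synapse between a motor nerve ending and a muscle fibre, where the fibre gathers acetylcholine receptors and other proteins in a small patch of membrane. Phldb2 encodes LL5-beta, a protein with a pleckstrin homology domain that binds phosphoinositides at the inner face of the membrane. It helps to anchor microtubule ends at the cell cortex, and in cultured muscle cells it lies in podosome-like structures that shape the clusters of receptors. Cadm1 encodes SynCAM1, an adhesion molecule of the immunoglobulin superfamily that joins neighbouring cells and is also made by mast cells and by some dendritic cells. Gpm6b encodes a membrane glycoprotein of the proteolipid family, best known in neurons and glia, whose chain crosses the membrane several times.

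Promoter sequences are shown because Phldb2 and Gpm6b were the members with the most alike pattern over the 4 arrays, and because Chrne, the gene for the epsilon subunit of the adult acetylcholine receptor, was nearest to both among other genes. Each is the stretch of 250 bases that ends just before the transcript start in the RefSeq table of GRCm38.p6, and 2 of the 3 members matched that table. Phldb2 lies at chr16:45844379-45844628 on the minus strand, Gpm6b at chrX:166238693-166238942 on the plus strand and Chrne at chr11:70619195-70619444 on the minus strand. The letters run 5′ to 3′ along the gene, and capitals mark matches to 4 searched motifs.
Phldb2: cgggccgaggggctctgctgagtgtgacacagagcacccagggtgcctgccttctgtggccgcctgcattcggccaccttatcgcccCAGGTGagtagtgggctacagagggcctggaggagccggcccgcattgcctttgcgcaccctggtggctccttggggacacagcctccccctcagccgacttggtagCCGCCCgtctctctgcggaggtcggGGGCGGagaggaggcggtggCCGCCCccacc
Gpm6b: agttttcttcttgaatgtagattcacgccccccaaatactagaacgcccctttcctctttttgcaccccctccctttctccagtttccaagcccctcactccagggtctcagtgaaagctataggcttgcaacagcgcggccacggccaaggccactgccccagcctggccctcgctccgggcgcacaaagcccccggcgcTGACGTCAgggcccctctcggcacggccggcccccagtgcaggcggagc
Chrne: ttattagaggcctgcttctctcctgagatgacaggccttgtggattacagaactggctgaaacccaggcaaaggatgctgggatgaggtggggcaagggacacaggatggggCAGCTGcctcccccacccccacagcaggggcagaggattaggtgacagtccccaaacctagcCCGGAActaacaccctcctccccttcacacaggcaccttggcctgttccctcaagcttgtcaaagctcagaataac

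Both strands were searched for CCGGAA (the N-box core, which binds GABP), for CANNTG (the E-box, bound by myogenic factors), for TGACGTCA (the cyclic AMP response element) and for GGGCGG (the GC box). Chrne holds 1 N-box match, at position −76 from the start, and 1 E-box match with the letters CAGCTG. Neither Phldb2 nor Gpm6b holds an N-box match in this window, and 12.0% of the 32851 promoters in the table do. Phldb2 holds 1 E-box match, CAGGTG, at −163, and 3 GC box matches, against shares of 66.2% and 32.7% of all promoters. Gpm6b holds 1 full cyclic AMP response element, at −49, a match found in 1.5% of promoters. No matches overlapped. The bases were 70.0% G or C in Phldb2 and 63.2% in Gpm6b, with a median of 52.4% over all promoters. The Phldb2 start in the table lies 109220 bases inside the annotated gene, so other start sites of the gene were not searched. Matches are letters in a window and say nothing about binding in these samples.

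Values below are the deposited signals, or log2(signal + 32) after quantile normalisation where a log2 scale is named. The arrays did not fall into groups by their titles alone. Columns J 1a and NJ 1a are written with full digits and J 1c and NJ 1d with 1 decimal. The closest pair over 9317 tested probe sets was J 1c and NJ 1d, with a median absolute difference of 0.38 on the log2 scale. The other 5 pairs had 0.57 to 0.72, with 0.72 between the J arrays. The full-digit arrays were not a close pair, at 0.63. NJ 1a lay nearer to NJ 1d (0.57) and J 1c (0.59), and each of the other arrays lay farthest from J 1a. Differences are also given for the full-digit pair (J 1a minus NJ 1a) and for the 1-decimal pair (J 1c minus NJ 1d). Number format and replicate label cannot be told apart, since both 1a arrays carry full digits. The labelled tissue was checked against 11 muscle fibre markers, of which 10 had a probe set. Their summed signal was 1048382 on J 1a and 218806 on J 1c, against 840908 on NJ 1a and 684916 on NJ 1d. Every array thus carried strong muscle signal, with J 1c the lowest.

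Phldb2 was high on both J arrays and low on both NJ arrays. Its probe set 102907_at had signals of 1483.6 on J 1a and 1590.4 on J 1c, against 130.4 on NJ 1a and 105.3 on NJ 1d. The groups did not overlap, and arrays of one group lay close together. In the plot of signals by array the J values stand above the array medians of 375.5 and 300.4, and the NJ values below those of 366.3 and 280.2. Ranked from the highest signal among 12422 probe sets, Phldb2 was number 1993 on J 1a and 1896 on J 1c, against 9072 on NJ 1a and 8742 on NJ 1d. It thus lay in the upper part of both J arrays and in the lower part of both NJ arrays. In bulk RNA, more cells of a type and more RNA per cell cannot be told apart.

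On the log2 scale Phldb2 averaged 10.58 ± 0.05 in J and 7.26 ± 0.10 in NJ (SD, n = 2 each), a difference of 3.32 or 10.0-fold. The 2 number formats gave nearly the same value, 3.36 in the full-digit pair and 3.29 in the 1-decimal pair. The lowest J value exceeded the highest NJ value by 3.21. Its 2 J arrays differed from each other by far less than the median of 0.72 over all tested probe sets. Phldb2 was chosen as high on both J arrays, so this closeness is no measure of precision. The standard error from the limma fit was 0.66, larger than the arrays' own spread because limma draws each variance toward that of other probe sets of like brightness. Without normalisation the ratio of deposited signals was 11.4 in the full-digit pair and 15.1 in the 1-decimal pair.

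**Figure D1:**
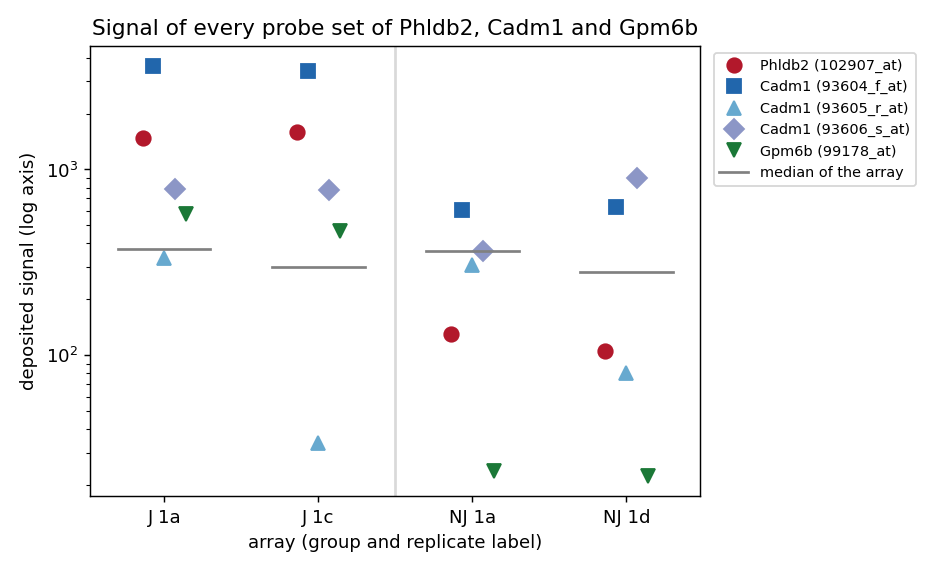
Deposited signal (log axis) of each probe set of the 3 genes on the 4 arrays, with grey bars at each array's median over non-control probe sets. Phldb2, Gpm6b and the Cadm1 probe set 93604_f_at have both J signals above both NJ signals, while the other 2 Cadm1 probe sets overlap between the groups.

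Gpm6b lay somewhat above the middle of the J arrays and near the bottom of the NJ arrays. Its probe set 99178_at had signals of 576.9 on J 1a and 466.4 on J 1c, against 23.8 on NJ 1a and 22.5 on NJ 1d. Both J values lay above the array median and the NJ values were 0.0649 and 0.0803 of it. Its ranks were 4778 and 4990 on J 1a and J 1c, against 12179 and 11596 on NJ 1a and NJ 1d. On NJ 1a 98.0% of probe sets had a higher signal, and on NJ 1d 93.3%. The table holds no detection calls, so whether these NJ signals stand above background is not known.

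The log2 level of Gpm6b averaged 9.08 ± 0.07 in J and 5.83 ± 0.28 in NJ (SD, n = 2 each), a difference of 3.25 or 9.54-fold, with a limma standard error of 0.75. Within number formats the difference was 3.50 for the 1a arrays and 3.01 for J 1c and NJ 1d, and the smallest gap between the groups was 3.01. This scale compresses low signals. The ratio of deposited signals was 24.3 in the full-digit pair and 20.7 in the 1-decimal pair, and the log2 difference was 4.38 with a pseudocount of 1 and 2.28 with one of 100. The direction held under each, while the size of the Gpm6b fold depends on how signals near the bottom of the array are treated.

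Cadm1 had 3 probe sets, and they did not give the same picture. The brightest, 93604_f_at, had signals of 3586.3 on J 1a and 3367.2 on J 1c, against 605.1 on NJ 1a and 628.6 on NJ 1d. These groups lay far apart, with little spread inside either. It ranked 699 and 839 on J 1a and J 1c, against 4500 and 4036 on NJ 1a and NJ 1d, so that it was above the median on every array. Its log2 level averaged 11.79 ± 0.15 in J and 9.36 ± 0.15 in NJ (SD, n = 2 each), a difference of 2.43 or 5.38-fold, with a limma standard error of 0.42. The difference was 2.64 in the full-digit pair and 2.22 in the 1-decimal pair.

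The probe set 93606_s_at, designed from another Cadm1 database sequence, had signals of 786.7 on J 1a and 771.1 on J 1c, against 365.9 on NJ 1a and 894.9 on NJ 1d. NJ 1d was the highest of the 4 arrays and NJ 1a the lowest, so the groups overlapped. Its ranks were 3686 and 3615 on J 1a and J 1c, against 6220 and 3089 on NJ 1a and NJ 1d. The log2 difference was 0.44, with 1.14 in the full-digit pair and −0.26 in the 1-decimal pair. Without NJ 1a the difference was −0.28.

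The dimmest Cadm1 probe set, 93605_r_at, shares its database sequence with 93604_f_at. It had signals of 332.4 on J 1a and 33.6 on J 1c, against 306.3 on NJ 1a and 80.3 on NJ 1d. Here the arrays divided by number format, with both full-digit arrays high and both others low. Its ranks were 6607 and 11309 on J 1a and J 1c, against 6780 and 9373 on NJ 1a and NJ 1d. The log2 difference was −0.40, with 0.07 in the full-digit pair and −0.88 in the 1-decimal pair. By leaving out single arrays it ran from −1.48 to 0.67.

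For Cadm1 the J signal therefore rests on 1 of 3 probe sets, and the mean difference over the 3 was 0.82. In the array maker's naming, f marks probes that can match several related sequences, r a set for which probe design rules were relaxed, and s probes shared by several transcripts. Transcripts that each set detects were not examined, so signal of 93604_f_at from a related sequence and signal from Cadm1 cannot be told apart here.

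**Figure D2:**
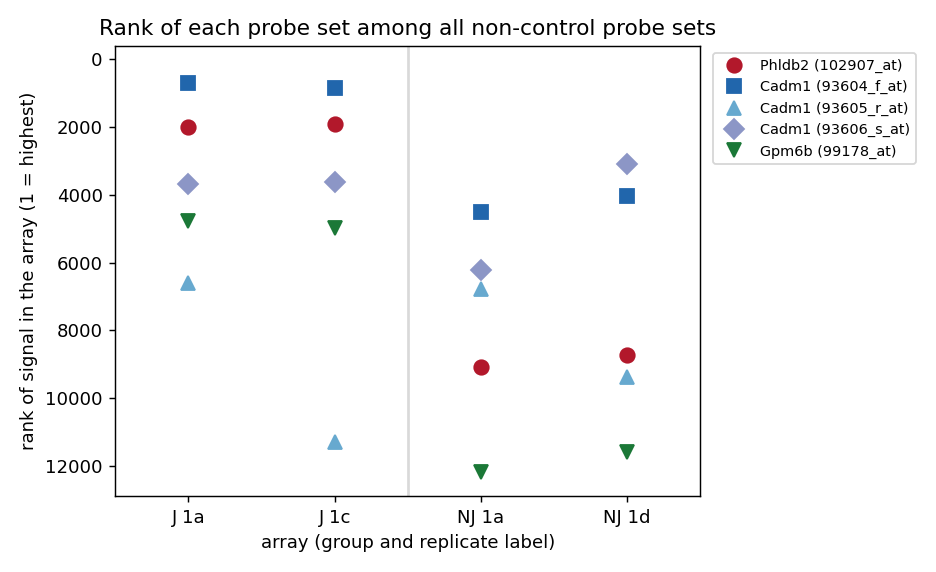
Rank of each probe set's deposited signal among the 12422 non-control probe sets of each array, with rank 1 at the top. Phldb2, Gpm6b and Cadm1 93604_f_at rank better in each J array than in either NJ array, and Cadm1 93606_s_at reaches its best rank, 3089, on NJ 1d.

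All 5 probe sets passed the filter on dim signals, which asked for a mean over the 4 arrays above the 25th percentile. Gpm6b passed through its J values alone, since its NJ mean of 5.83 lies under the limit of 7.22 on the log2 scale. Among the 9317 probe sets tested, the J minus NJ difference of Phldb2 ranked 2 and that of Gpm6b 3 from the top. Cadm1 ranked 12 with 93604_f_at, 2068 with 93606_s_at and 6989 with 93605_r_at. A difference over 3 on the log2 scale was reached by 3 probe sets, and in both number formats by 2, those of Phldb2 and Gpm6b. The third, Postn, the matrix protein periostin made by fibroblasts, had 4.32 in the full-digit pair and 2.54 in the 1-decimal pair. A difference over 2 in both formats was seen for 13 probe sets, Cadm1 93604_f_at among them, and one under −2 in both for 7.

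Of the 5 probe sets, 3 had both J values above both NJ values, as had 13.6% of all tested probe sets, and 12.8% had both below. In the fit across all probe sets, limma with a Benjamini-Hochberg adjusted p under 0.05 found 0 with a higher J level and 0 with a lower one (0.0% in either direction), with a smallest adjusted p of 0.999. An unadjusted limma p under 0.05 was reached by 117 probe sets higher in J (1.26%) and by 82 lower in J (0.88%). A term for number format changed the adjusted count to 8, made up of 4 with J above and 4 with J below, and leaving out J 1a changed it to 4, all with J below. The members were chosen on this contrast, so nothing is read from their place among these shares.

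**Figure D3:**
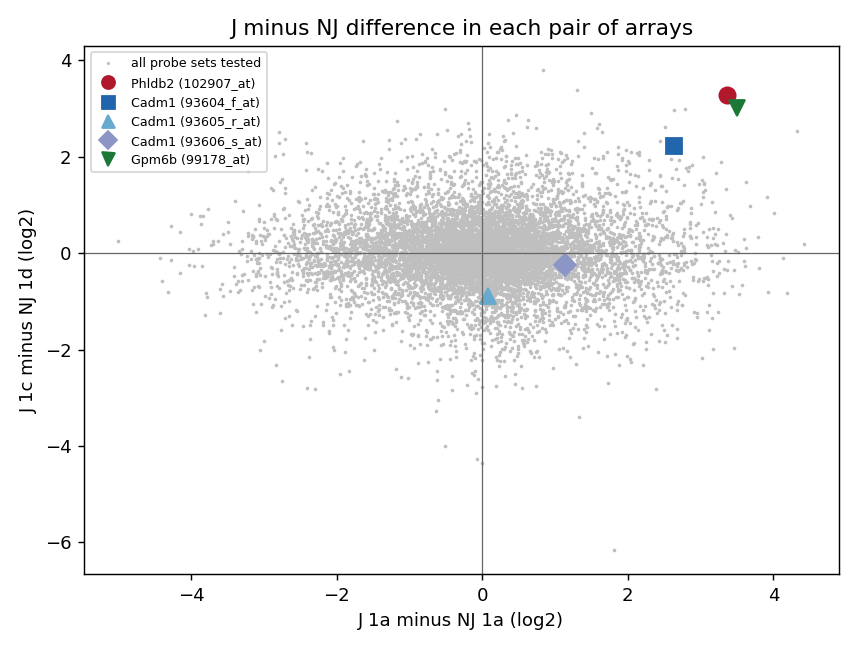
J minus NJ difference on the log2 scale in the full-digit pair (horizontal) and in the 1-decimal pair (vertical) for the 9317 tested probe sets (grey) and the 5 of the members. Phldb2 (3.36 and 3.29), Gpm6b (3.50 and 3.01) and Cadm1 93604_f_at (2.64 and 2.22) lie at the upper right, and the other Cadm1 probe sets lie near the centre.

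Likeness of pattern was measured as the Euclidean distance between the 4 log2 values of 2 probe sets, each centred on its own mean. Phldb2 and Gpm6b were closer to each other, at 0.23, than either was to any other named gene. The distance to Cadm1 93604_f_at was 0.92 from Phldb2 and 0.84 from Gpm6b. Next to both stood the Chrne probe set 92966_g_at, at 0.56 from Phldb2 and 0.62 from Gpm6b. This Chrne set had signals of 743.6 on J 1a and 809.9 on J 1c, against 101.3 on NJ 1a and 58.0 on NJ 1d. Its log2 difference was 2.80. That its groups had the order of the members follows from its being picked for a like pattern. The other Chrne probe sets differed by 1.64 and 0.20.

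Irf8, a transcription factor of blood and dendritic cells, was the 2nd nearest gene to Phldb2 (0.77) and to Cadm1 (0.33) and the 3rd nearest to Gpm6b (0.75). Its only probe set had signals of 779.9 on J 1a and 858.5 on J 1c, against 121.2 on NJ 1a and 91.3 on NJ 1d. Its groups did not overlap, which again follows from the choice by like pattern. Scd1, a fatty acid desaturase, was the 3rd nearest to Phldb2 (0.86), and Postn was the 2nd nearest to Gpm6b (0.68). For Cadm1 the nearest was the receptor phosphatase gene Ptpra (0.28), and Tmpo, which encodes lamina-associated polypeptides, was the 3rd nearest (0.38). Other probe sets of Scd1 differed by −0.05 and 0.21, of Ptpra by −0.13 and of Tmpo by −0.75 and −0.24, so these likenesses hold for single probe sets. Each distance rests on 4 arrays.

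No tested gene of the lists of partners and relatives had a difference as large as those of the 3 high member probe sets. The members were chosen on this contrast, so nothing is read from that gap. Of 75 genes in the related lists, 49 were represented on the array and 42 passed the filter on dim signals. Of these 18 were higher in J and 24 lower, with a median difference of −0.07 against −0.01 over all tested probe sets. None passed limma in either direction (adjusted p = 0.999 for each), and 1 had an unadjusted p under 0.05. After normalisation, groups did not overlap for 7 genes with J above and for 7 with J below, 16.7% each, beside 13.6% and 12.8% of all tested probe sets. The brightest probe set stands for each gene, and ± gives the standard error of the limma fit on the log2 scale over 2 arrays per group.

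Among partners of LL5-beta, 8 of 18 genes were measured, of which 3 were higher and 5 lower in J after normalisation (median −0.14). The median was −0.01 without J 1a, −0.38 without J 1c, −0.05 without NJ 1a and 0.03 without NJ 1d. Its paralog Phldb1, which encodes LL5-alpha, differed by 1.05 ± 0.74. That came from the full-digit pair (2.21), with −0.12 in the 1-decimal pair. Lama5, a laminin chain, differed by 1.46 ± 0.81, again mostly in the 1a arrays (2.76 against 0.15). Its other probe set differed by −0.20. Genes for laminin-binding integrin alpha chains and dystroglycan lay below 0. Itga3 differed by −0.68 ± 0.69, Itga6 by −0.27 ± 0.58 and Dag1 by −0.34 ± 0.36, the 3 with both J values below both NJ values after normalisation. On the deposited scale Itga6 overlapped, with 602.1 on J 1c against 593.3 on NJ 1d. The other probe set differed by −0.71 for Itga3 and by 0.27 for Dag1. Itgb1, the shared beta chain, differed by 0.43 ± 0.62 and by 0.51 at its other probe set. The 0.43 holds only after normalisation, since the deposited signals were lower in J in both pairs. They were 17270.4 on J 1a against 20602.1 on NJ 1a, and 27366.5 on J 1c against 31879.1 on NJ 1d. The actin-binding filamin Flna differed by −0.86 ± 0.82 and Amotl2 by −0.01 ± 0.73. Other partners, among them the microtubule-binding Clasp1 and Clasp2, had no named probe set.

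Of 14 podosome genes, 13 had a probe set and 12 were tested, with 3 higher and 9 lower and a median of −0.24, which was −0.12 without J 1a and −0.14 without J 1c. Zyx, the adhesion protein zyxin, had signals of 89.2 on J 1a and 82.8 on J 1c, against 677.3 on NJ 1a and 183.6 on NJ 1d. Both J values were the lower ones, and the difference was −1.87 ± 0.83, the 1 list gene with an unadjusted limma p under 0.05, although its adjusted p was 0.999 in that fit. The tyrosine kinase Src differed by −1.66 ± 0.78 and the scaffold Pxn by −0.39 ± 0.45, both with J below NJ on every array. Actn1 differed by −1.05 ± 0.97, Cttn by −0.95 ± 0.72 and Vcl by −0.82 ± 0.50. For these 3 genes of actin-associated proteins J 1a had the lowest signal of the arrays (128.9, 303.3 and 1029.6). On J 1c it was 1164.2, 1302.5 and 2688.6, on NJ 1a 558.0, 1397.8 and 3424.9 and on NJ 1d 1157.2, 902.4 and 2397.2. Their differences were −2.03, −2.31 and −1.77 in the full-digit pair, and J 1c against NJ 1d gave −0.07, 0.41 and 0.13. Another tested probe set of Vcl differed by 0.09 and one of Actn1 by −0.21, and a dim Actn1 set, not tested, by 0.53.

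The podosome protease Mmp14 (0.47 ± 0.40) and the actin-binding Pfn1 (0.91 ± 0.81) had both J values above both NJ values. For Pfn1 that rested on the 1-decimal pair (1.73), with 0.08 in the full-digit pair. Cfl1 (0.12 ± 0.43), Tln1 (−0.01 ± 0.39), Arpc2 (−0.07 ± 0.37) and Gsn (−0.09 ± 0.42) lay close to 0. Other Tln1 probe sets differed by 0.20 and −0.20. Sh3pxd2a, a podosome scaffold, was too dim to test.

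Relatives of Cadm1 in the SynCAM and nectin family were few on the array, with 4 of 9 genes measured and 2 tested. Nectin2 differed by −0.27 ± 0.61, and by 0.12 at its other probe set, and Pvr by −0.66 ± 0.93. Both overlapped between groups. Nectin3 and Crtam, a lymphocyte receptor that binds SynCAM1, were too dim to test. Crtam had signals of 19.1 on J 1a and 22.0 on J 1c, against 21.1 on NJ 1a and 26.3 on NJ 1d. Cadm2, Cadm3 and Cadm4 had no named probe set.

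Of 12 genes for proteins at the cytoplasmic tail of SynCAMs, 6 were measured and 5 tested, 4 higher and 1 lower, with a median of 0.82. That median depended on single arrays, at 0.39 without J 1a, 0.16 without NJ 1a and 1.22 without NJ 1d. The kinase-like scaffold Cask had signals of 738.8 on J 1a and 1693.8 on J 1c, against 422.8 on NJ 1a and 661.1 on NJ 1d. It was higher in J within each number format, 0.81 and 1.18, although the groups overlapped after normalisation, and its difference was 0.99 ± 0.63. The spectrin-actin linker Epb41l2 differed by 1.71 ± 0.99, with 3.60 in the full-digit pair and −0.17 in the 1-decimal pair. Syntenin, encoded by Sdcbp, differed by 0.82 ± 0.82, with 1.92 and −0.28 in the same pairs. Tiam1 differed by 0.35 ± 0.81 and by −0.04 at another probe set. The scaffold Mpp3 went the other way, at −1.15 ± 0.72 with both J values below both NJ values. Epb41l1 was too dim to test.

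Gpm6a, the closest relative of Gpm6b, had no named probe set. Of 20 other genes for proteins that cross the membrane 4 times, 18 were measured and 15 tested, 8 higher and 7 lower, with a median of 0.12. It was 0.47 without J 1a, 0.43 without J 1c, 0.33 without NJ 1a and −0.04 without NJ 1d. The tetraspanin Cd81 had signals of 2258.8 on J 1a and 1907.7 on J 1c, against 1099.6 on NJ 1a and 1077.8 on NJ 1d. Both J values were higher in either number format, and the difference was 0.89 ± 0.42. Cd82 (0.60 ± 0.51), Plp2 (0.56 ± 0.37) and Emp3 (0.92 ± 0.54) also had J above NJ without overlap. For Emp3 this held after normalisation, while the deposited signals overlapped (2157.9 on J 1a against 2187.7 on NJ 1a), and the difference was 0.02 in the full-digit pair and 1.82 in the 1-decimal pair. Other tested probe sets of Cd82 and Emp3 differed by 0.03 and 0.27.

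The remaining 4-pass genes overlapped between the groups. Tspan4 differed by 0.76 ± 0.83, Cd9 by 0.29 ± 0.40, Emp2 by 0.25 ± 0.57 and Cd151 by 0.12 ± 0.39. Other tested Cd151 probe sets differed by −0.18 and 0.04. Lower values were seen for Emp1 (−0.06 ± 0.61), Cd63 (−0.12 ± 0.40), the myelin protein gene Pmp22 (−0.27 ± 0.77), Tspan9 (−0.29 ± 0.63), Mal (−0.31 ± 0.87) and Tspan3 (−0.35 ± 0.85). A dim Pmp22 probe set, not tested, differed by 1.04. Tspan8 had the lowest difference of the list, −2.12 ± 1.31. Its signal was 43.8 on J 1a and 2213.2 on J 1c, against 992.6 on NJ 1a and 2624.5 on NJ 1d, so J 1a alone was low. Cd37, Cd53 and Tspan5 were too dim to test.

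**Figure D4:**
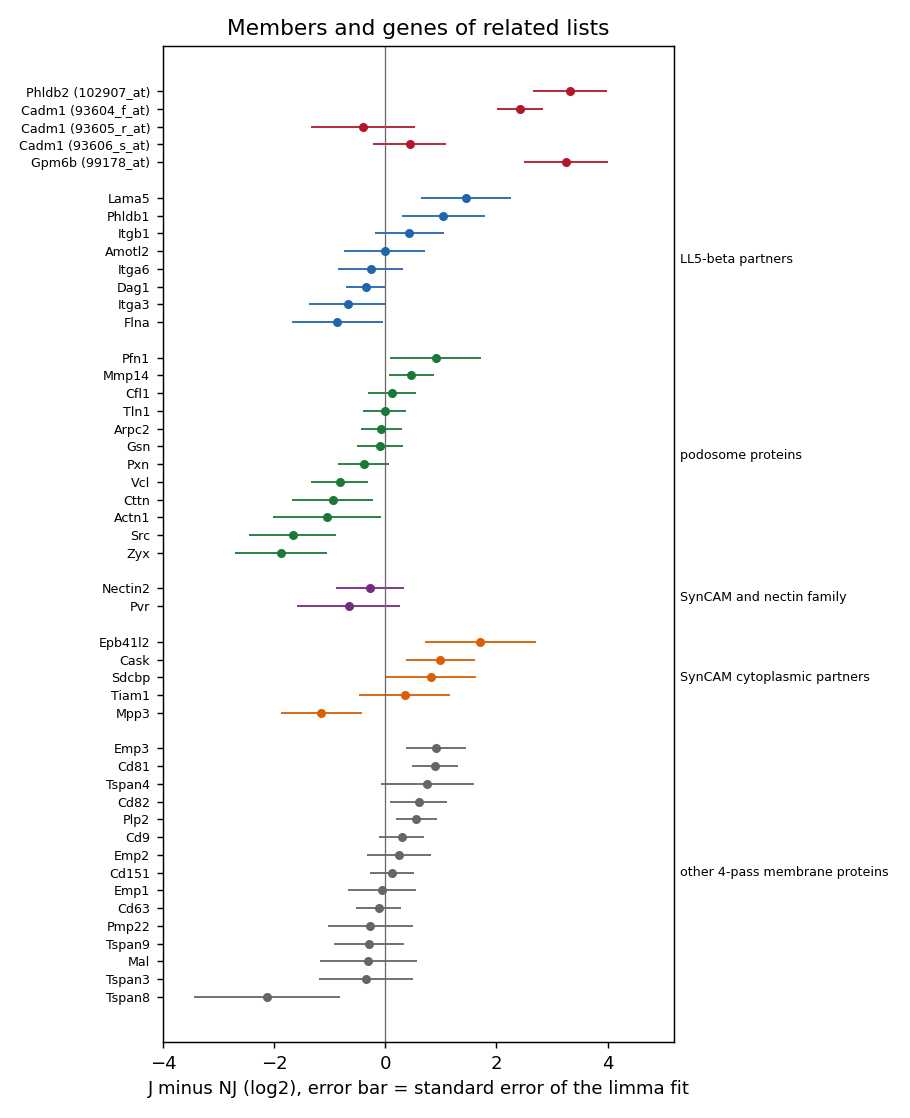
J minus NJ difference (log2) of the members' probe sets (red) and of 42 tested genes of related lists, with limma standard errors as bars (2 arrays in each group). The 3 high probe sets of the members, at 2.43 to 3.32, belong to genes chosen on this contrast. They therefore lie to the right of every list gene, the highest of which is Epb41l2 at 1.71.

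Cells other than muscle fibres can also make these transcripts, so marker lists of 7 other cell types are given beside the members. No signal in the table is at 0. Of 7 mast cell markers all had a probe set and 5 were tested, 4 of them higher and 1 lower in J (median 0.79). Their summed signal was 3128 on J 1a and 3430 on J 1c, against 2721 on NJ 1a and 1311 on NJ 1d. Both J sums were the higher ones, as they were for endothelial markers. Single genes weighed heavily in the mast cell sums of both groups. Tpsb2 had 1592.1 on J 1a and 953.1 on J 1c, against 960.6 on NJ 1a and 923.5 on NJ 1d. Cma1 had 34.9 on J 1a and 1191.1 on J 1c, against 998.7 on NJ 1a and 53.9 on NJ 1d. Cpa3, a mast cell protease, differed by 0.90 ± 0.76 at its brighter probe set and by 2.35 at the other. Ms4a2 differed by 1.33 ± 0.76, Mcpt4 by 0.79 ± 0.91 and Tpsb2 by 0.35 ± 0.49, with 1.77 at its other set. Cma1 went the other way, at −0.30 ± 1.47, and its dimmer probe sets, not tested, differed by −0.31 and 0.35. Of 7 dendritic cell markers 6 had a probe set, and 3 of 5 tested were higher in J. Their sum was 3852 and 4318 on J 1a and J 1c, against 3926 and 3843 on NJ 1a and NJ 1d.

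Schwann cell markers, 5 of 11 measured, had 1 higher and 4 lower in J. They summed to 3791 and 3756 on J 1a and J 1c, against 5070 and 3183 on NJ 1a and NJ 1d. Neuron and axon markers, 10 of 11 measured, had 3 higher and 5 lower of 8 tested. Their sum was 8005 on J 1a and 3584 on J 1c, against 4662 on NJ 1a and 4436 on NJ 1d. For both lists the J and NJ sums overlapped.

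Fibroblast markers, 8 of 8 measured, were higher in J for 6 and lower for 2 (median 0.36), with Postn the highest at 3.43. They summed to 111070 on J 1a and 44321 on J 1c, against 61686 on NJ 1a and 52757 on NJ 1d. Smooth muscle and pericyte markers, 6 of 7 measured, were higher in all 6, with a median of 0.54 and sums of 6872 and 4586 on J 1a and J 1c, against 6650 and 2188 on NJ 1a and NJ 1d. Endothelial markers, 7 of 7 measured, had 3 higher and 3 lower of 6 tested. Their sum was 8208 and 6517 on J 1a and J 1c, against 6423 and 6349 on NJ 1a and NJ 1d. Both J sums were the higher ones, though 6517 on J 1c lay close to 6423 on NJ 1a. The part of these cell types in the signals of Phldb2, Cadm1 and Gpm6b was not tested.

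Other processing left the 3 high probe sets high, which was largely set by their choice as high on both J arrays. The values below show only how the size of the difference varied. The deposited scale without normalisation gave 3.39 for Phldb2, 2.43 for Cadm1 93604_f_at and 3.32 for Gpm6b. Leaving out single arrays, J 1c included, gave 3.23 to 3.43 for Phldb2, 2.35 to 2.50 for Cadm1 93604_f_at and 3.10 to 3.42 for Gpm6b.

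**Figure D5:**
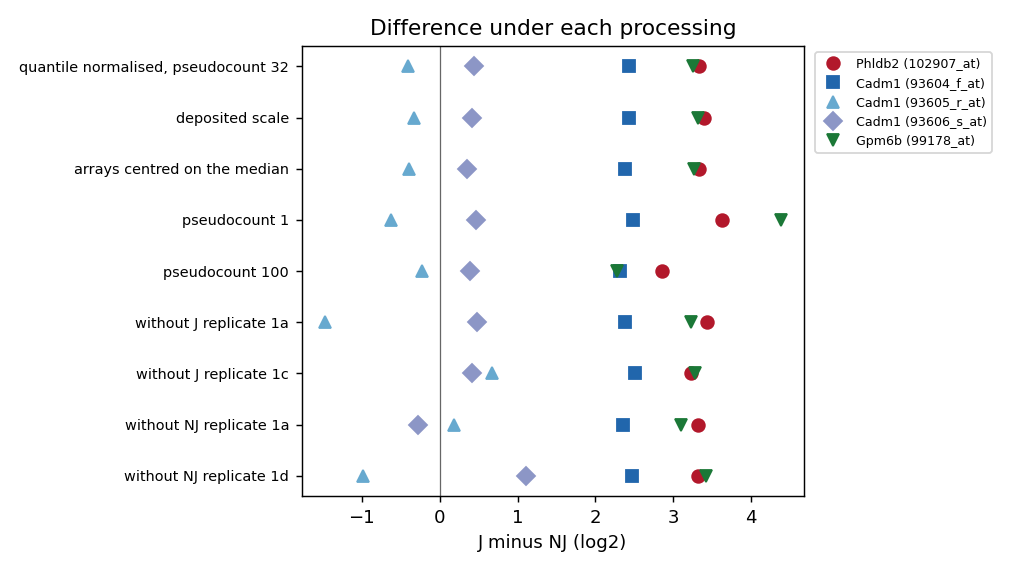
J minus NJ difference (log2) of each member probe set under 9 ways of processing, listed on the vertical axis. Phldb2 and Cadm1 93604_f_at stay between 2.31 and 3.62 and Gpm6b between 2.28 and 4.38, while the other 2 Cadm1 probe sets cross 0.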

How the data were processed

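The authors deposited 1 linear intensity for each probe set on each array, and the software that made it is not given in the sources used here. Each column had a mean of 800.5 to 800.6 after trimming 2% at each end. The members and gene lists were chosen with earlier results of these data known. Of 12488 probe sets, 66 controls were left out of the tests and ranks. Gene names came from the platform annotation, in which 10833 probe sets had 1 symbol, 396 several and 1193 none. Column medians ran from 8.29 to 8.67 as log2(intensity + 32), so arrays were quantile normalised. Probe sets with a mean above the 25th percentile were fitted with limma 3.58.1 in R 4.3.3 (eBayes, trend by intensity, 2 residual degrees of freedom, Benjamini-Hochberg over all of them, threshold 0.05). The script was tested on simulated data. Ranks use deposited intensities. The text names all probe sets of the members, every measured gene of the partner lists, and the 3 genes nearest in pattern to each member's brightest probe set. Alternatives were the deposited scale, median centring, pseudocounts of 1 and 100, other filters, no trend, a number-format term, leaving out each array, the mean of a gene's probe sets, and ranks with controls. Figures were drawn with matplotlib 3.10.9. Array number limits the precision.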

Additional observations from a re-analysis of the deposited data

How the results depend on the processing

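No pairing by replicate label was possible because only 1 label, 1a, is shared by the groups, so labels cannot serve as the block. A term for number format, which pairs J 1a with NJ 1a and J 1c with NJ 1d, was fitted instead. That fit leaves fewer residual degrees of freedom than the main fit. With pseudocounts of 1 and 100, Phldb2 differed by 3.62 and 2.85 and Gpm6b by 4.38 and 2.28, as the added constant sets the low end of the scale. With 1 array left out the ranges were 3.23 to 3.43 for Phldb2, 2.35 to 2.50 for Cadm1 and 3.10 to 3.42 for Gpm6b. The mean of the 3 Cadm1 probe sets was 0.82. Of the overlapping Cadm1 probe sets, 93605_r_at ran from −1.48 to 0.67 and changed sign without J 1c (0.67) and without NJ 1a (0.18), and 93606_s_at ran from −0.28 to 1.11 and changed sign without NJ 1a (−0.28). The cause was not tested. Limma called 8 probe sets in all, 4 higher and 4 lower, with the number-format term, and 0 to 4 with 1 array left out, the 4 being lower in J without J 1a. It called 0 in the other alternatives, and 0 list genes in any. In 13 alternatives the median ran from −0.35 to −0.09 for podosome genes and from 0.16 to 1.22 for cytoplasmic SynCAM partners. That of LL5-beta partners was 0.03 without NJ 1d, that of SynCAM and nectin relatives 0.30 without J 1c and that of 4-pass proteins −0.04 without NJ 1d. Ranking control probe sets too moved ranks by 17 to 65 places.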
